A study of Mus musculus with 18 samples.

Results

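The pituitary and the hypothalamus of WT mice were compared by RNA-Seq. The comparison used 6 of the 18 libraries of the series: 1 pituitary and 1 hypothalamus library for each of the WT mouse numbers 1, 2 and 43, chosen by tissue and genotype alone. The shared numbers were read as the same animals, which the labels do not state in words. All were untreated C57BL/Ntac males aged 3 months with unmutated thyroid hormone receptor β (THRB). The 3 pituitary and 3 hypothalamus libraries of the K146Q mice (numbers 60, 62 and 83) were used only to ask whether a tissue difference held in the other genotype. In these mice every cell carries THRB with a single lysine replaced by glutamine, and the mutation is homozygous. They were also untreated males aged 3 months on the same strain background. The thyroid libraries were not used. Each library is a whole dissected tissue, and the borders of the dissection and the pituitary lobes it included are not stated in the labels. The paper's methods name the pituitary, and a figure legend of the paper calls the sequenced tissue anterior pituitary. Of 24027 gene symbols found once in both tissues, 16091 had a level of at least 0.5 in at least 3 of the 6 libraries and were tested.

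Neurons of the hypothalamus make small factors that travel in portal blood to the anterior pituitary. There they bind receptors on endocrine cells, each of which makes 1 or a few hormones: growth hormone (GH) in somatotropes, prolactin in lactotropes, ACTH from the precursor POMC in corticotropes, thyrotropin (TSH) in thyrotropes, and LH and FSH in gonadotropes. TSH, LH and FSH share the α subunit encoded by Cga and differ in the β subunit. The posterior lobe holds the axon endings of vasopressin and oxytocin neurons, whose cell bodies lie in the hypothalamus, and the intermediate lobe also makes POMC.

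Levels are normalized CPM, that is reads scaled to a common library total after multiplying each total by a normalization factor. Differences are pituitary minus hypothalamus on log2(normalized CPM + 0.5), with a limma test of 3 against 3 libraries, and a gene is called higher or lower where the Benjamini-Hochberg adjusted p over the genes tested is under 0.05. The hypothalamus libraries held 15395363 to 15865500 reads and the pituitary libraries 16468854 to 20339233, so that 3 reads, the limit that a count of 0 allows, corresponded to between 0.133 and 0.179 CPM. Of the 16091 genes, 12272 (76.3%) were called, 6196 (38.5%) higher in pituitary and 6076 (37.8%) higher in hypothalamus. An 8-fold or larger called difference was found for 341 genes higher in pituitary (2.12%) and 739 higher in hypothalamus (4.59%), or 6.71% in all, and the range of the pituitary values lay above that of the hypothalamus for 40.0% and below it for 39.4% of the genes. Because so many genes differed, a call on its own says little, and the size of the difference and the values of each library are given below. The median difference over all genes was 0.0095, and it moved to 0.28 when libraries were scaled to their totals without the 10 highest genes, which changed the calls to 7999 higher in pituitary and 4709 higher in hypothalamus. With 3 libraries against 3, an exact permutation test of a single gene cannot go below p = 0.10.

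All 7 genes of the anterior lobe hormones were higher in pituitary by more than 6 on the log2 scale, with a median difference of 8.84 against 0.0095 over all genes tested. Together they took 14.8, 17.7 and 24.9% of all reads in the pituitary of mice 1, 2 and 43, and between 0.0146 and 0.0154% in the hypothalamus. Growth hormone alone gave 10.8, 13.3 and 20.7% of the pituitary reads. Gh, on chromosome 11 from 106300271 to 106301865 (GRCm38), had a normalized CPM of 97779, 125476 and 213048 in the pituitary and 93.4, 86.7 and 83.4 in the hypothalamus of mice 1, 2 and 43. The 3 pituitaries differed from each other by more for Gh than for Cga, and mouse 43 stood highest. The difference in Gh was 10.61 (SE 0.23, limma adjusted p = 5.23e-10).

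Prl, which encodes prolactin and lies on chromosome 13 from 27057570 to 27065205, had levels of 19074, 24885 and 30662 in pituitary and 12.9, 14.1 and 10.3 in hypothalamus. Its difference of 10.89 (SE 0.16, limma adjusted p = 1.12e-10) was the largest of the 16091 genes tested. Pomc had levels of 11541, 11161 and 7554 in pituitary and 21.2, 19.1 and 23.3 in hypothalamus, where a small group of arcuate neurons is known to express it. Mouse 43, the highest of the 3 for Gh and Prl, was the lowest for Pomc. The Pomc difference was 8.84 (SE 0.15, limma adjusted p = 1.67e-10), and reads cannot be assigned to the anterior or intermediate lobe.

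The genes of the glycoprotein hormones were similar between mice except for Tshb. Cga, the shared α subunit, had levels of 3339.6, 3157 and 4007 in pituitary and 9.01, 8.84 and 8.47 in hypothalamus (difference 8.55, SE 0.089, limma adjusted p = 3.67e-11). Tshb, the β subunit of TSH, had levels of 539, 235 and 593 in pituitary, where mouse 2 was the lowest of the 3, and 3.04, 3.53 and 3.48 in hypothalamus. Tshb had the smallest difference of the 7 hormone genes, 6.78 (SE 0.29, limma adjusted p = 2.63e-08), and also the largest SE among them. Lhb and Fshb, the β subunits of LH and FSH, had levels of 727, 807 and 612 and of 606, 759.6 and 504 in pituitary. In hypothalamus Lhb stood at 1.25, 1.33 and 1.45 and Fshb at 0.656, 0.405 and 0.580, giving differences of 8.59 and 9.21.

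Upstream sequences of Prl, Tshb and Cga, from the pituitary side, and of Sst and Trh, from the hypothalamic side, are shown as examples. Each gene had a called difference of 8-fold or more, and the DNA next to the start can be compared across genes that moved together. Each line is the 250 bases before the start of transcription in RefSeq (GRCm38.p6), 5′ to 3′ on the strand of the gene. Capitals mark the letters TATAAA on the forward strand (the TATA box), TGACGTCA (the cyclic AMP response element, its own reverse complement), ATGNATA on either strand (letters of the kind POU1F1 binds) and TAATCC on either strand (letters of the kind PITX factors bind).
Prl, chr13:27057320-27057569, forward strand: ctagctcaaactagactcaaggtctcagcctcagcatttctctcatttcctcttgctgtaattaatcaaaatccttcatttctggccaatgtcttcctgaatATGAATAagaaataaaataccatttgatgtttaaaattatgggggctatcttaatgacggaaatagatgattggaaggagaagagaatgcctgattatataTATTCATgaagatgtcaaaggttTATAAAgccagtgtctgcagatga
Tshb, chr3:102782715-102782964, reverse strand: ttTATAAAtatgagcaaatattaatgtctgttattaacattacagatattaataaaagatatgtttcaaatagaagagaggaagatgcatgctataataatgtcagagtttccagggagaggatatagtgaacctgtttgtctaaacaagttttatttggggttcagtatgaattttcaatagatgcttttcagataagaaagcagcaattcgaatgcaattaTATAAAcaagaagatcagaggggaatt
Cga, chr4:34893529-34893778, forward strand: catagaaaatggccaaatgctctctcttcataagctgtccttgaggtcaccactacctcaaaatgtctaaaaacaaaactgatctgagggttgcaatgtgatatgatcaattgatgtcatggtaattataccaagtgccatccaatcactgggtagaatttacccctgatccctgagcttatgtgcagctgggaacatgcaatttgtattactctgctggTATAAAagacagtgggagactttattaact
Sst, chr16:23890845-23891094, reverse strand: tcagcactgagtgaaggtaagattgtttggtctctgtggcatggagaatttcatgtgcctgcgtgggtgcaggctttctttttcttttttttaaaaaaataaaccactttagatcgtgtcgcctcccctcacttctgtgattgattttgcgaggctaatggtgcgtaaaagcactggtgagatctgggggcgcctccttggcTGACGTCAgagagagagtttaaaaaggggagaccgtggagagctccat
Trh, chr6:92244651-92244900, reverse strand: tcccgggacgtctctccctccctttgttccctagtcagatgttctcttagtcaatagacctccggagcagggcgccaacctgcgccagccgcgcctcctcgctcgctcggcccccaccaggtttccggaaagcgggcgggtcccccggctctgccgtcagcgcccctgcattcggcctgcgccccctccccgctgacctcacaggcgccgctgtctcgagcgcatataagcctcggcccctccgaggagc
The Prl sequence held TATAAA from base -24 to -19 and ATGNATA letters from -148 to -142 and, on the other strand, from -47 to -41, counted back from the start. Tshb held TATAAA from -27 to -22 and again from -248 to -243, and Cga held it from -30 to -25. Sst held TGACGTCA from -48 to -41, and in the Trh window none of the 4 sets of letters was found.

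Of the 341 genes that were 8-fold or more higher in pituitary, 228 had 281 promoters in the RefSeq table, each reaching from 250 bases before to 50 bases after a start, and of the 739 genes on the hypothalamic side 546 had 730. TATAAA stood in 13.2% of the pituitary promoters and 4.93% of the hypothalamic ones, against 4.72% of the promoters of all genes tested and 8.32% of all 32851 promoters of the table. The other letters differed less. ATGNATA was found in 5.34 and 5.07% of the pituitary and hypothalamic promoters (4.22% of those of all genes tested), TAATCC in 6.05 and 4.25% (5.75%) and TGACGTCA in 2.85 and 1.92% (2.84%). The median number of CG dinucleotides was 11 in the pituitary promoters, 14 in the hypothalamic ones and 19 over all genes tested. These shares are a description of the letters in this window and were not tested.

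Hormone reads were also present in the hypothalamus libraries, at a fraction of the pituitary level that differed between genes. In mice 1, 2 and 43 the hypothalamic level of Gh was 0.0956, 0.0691 and 0.0392% of the pituitary level under the same mouse number. For Prl the share was 0.0337 to 0.0679%, for Cga 0.211 to 0.280%, and for Tshb 0.565 to 1.5%. The pituitary factors Pou1f1 and Pitx1 stood at 0 to 0.145% and 0.130 to 0.265%, and the epithelial gene Epcam at 0.138 to 0.363%. The source of these reads was not tested.

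**Figure D1:**
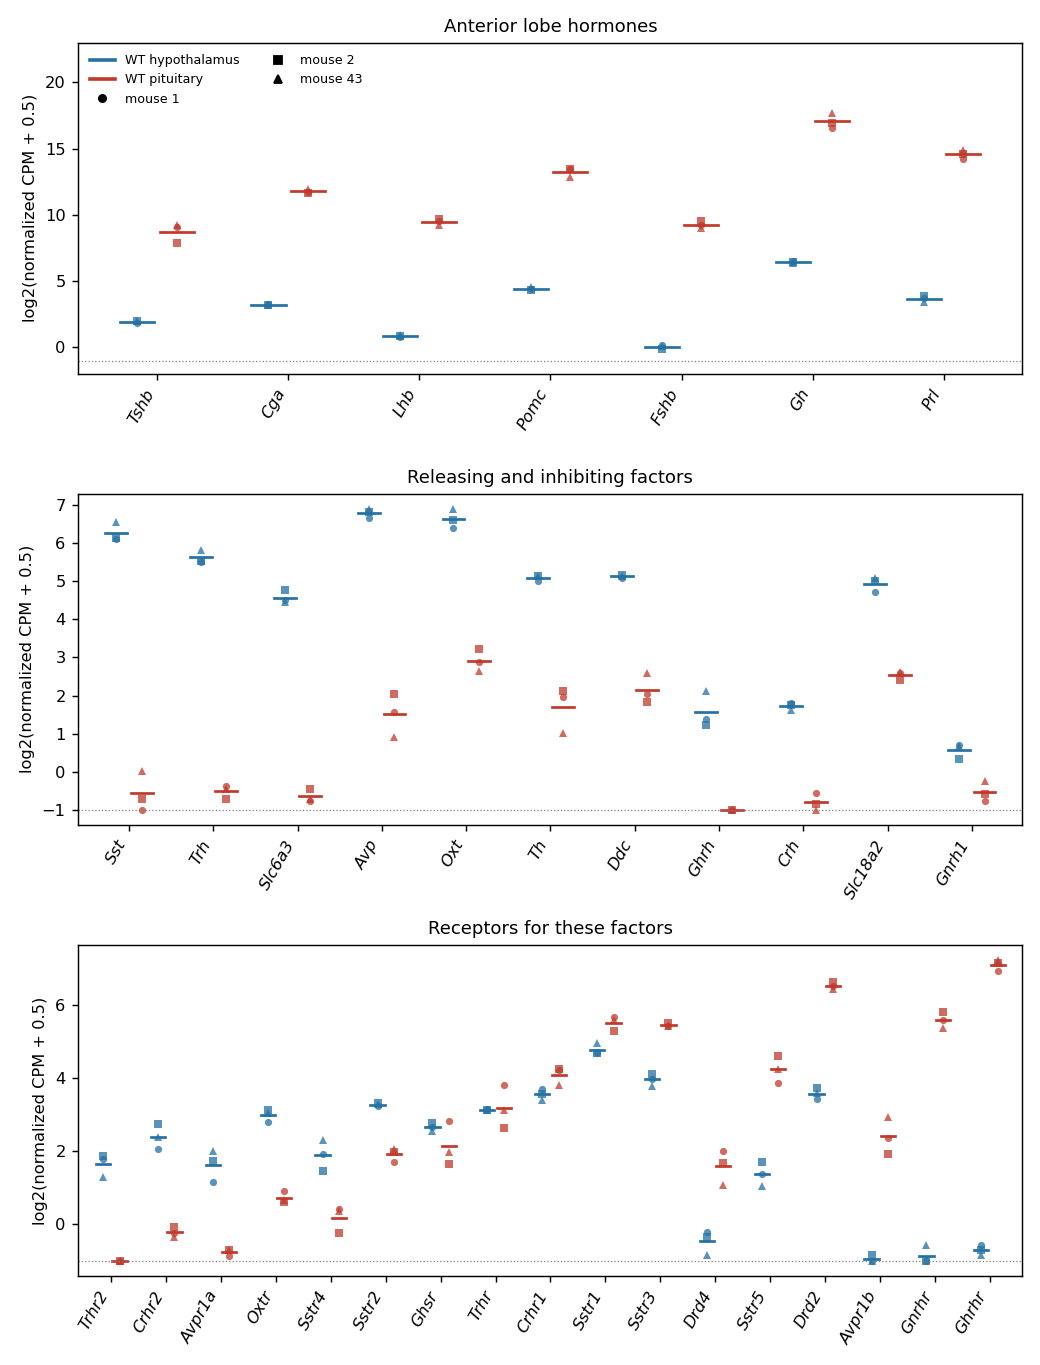
Level of each gene in the 6 WT libraries as log2(normalized CPM + 0.5), blue for hypothalamus and red for pituitary, with a symbol for each mouse, a bar at the mean of 3 libraries and a dotted line at the value of 0 reads. The hormones lie above and the releasing and inhibiting factors below in pituitary without overlap, whereas 9 of the 17 receptor genes were higher in pituitary, 6 were lower and Trhr and Ghsr overlapped.

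The 11 genes of the releasing and inhibiting factors, counted with the enzymes and transporters of dopamine, were all higher in hypothalamus, 6 of them by 8-fold or more, and their median difference was -3.39. Trh encodes the precursor of TRH, which stimulates TSH and prolactin release. It lies on chromosome 6 from 92242061 to 92244650 and had levels of 45.3, 46.0 and 56.2 in hypothalamus and 0.267, 0.114 and 0.228 in pituitary, which correspond to 759, 796 and 969 reads and to 6, 2 and 4 reads. The Trh difference was -6.14 (SE 0.15, limma adjusted p = 9.07e-10). Sst, the precursor of somatostatin, which inhibits GH release, had levels of 68.7, 69.8 and 93.9 in hypothalamus. In pituitary it had 0, 2 and 9 reads in mice 1, 2 and 43, and its difference of -6.83 (SE 0.25, limma adjusted p = 9.06e-09) was the most negative of the list.

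The remaining releasing hormones, made by small groups of neurons, had low levels. Crh, which drives ACTH release, stood at 2.98, 2.89 and 2.55 in hypothalamus and 0.178, 0.0572 and 0 in pituitary (difference -2.53, SE 0.18, limma adjusted p = 9.14e-07). Ghrh, which drives GH release, stood at 2.09, 1.85 and 3.83 in hypothalamus and had 0 reads in every pituitary. With 3 reads per library taken as the limit, Ghrh was at least 16.3-fold higher in hypothalamus. Gnrh1, which drives LH and FSH release, was near the limit of what these depths measure, at 1.13, 0.751 and 1.10 in hypothalamus and 0.0890, 0.172 and 0.342 in pituitary. It was still called, with the smallest difference of the list (-1.099, SE 0.21, limma adjusted p = 0.000831).

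Dopamine restrains prolactin release, and 4 genes of the list make, load or take up dopamine. Th, the rate-limiting enzyme of dopamine synthesis, had levels of 31.4, 34.9 and 34.9 in hypothalamus and 3.43, 3.83 and 1.54 in pituitary (difference -3.39, SE 0.25, limma adjusted p = 1.15e-06). Slc6a3, the dopamine transporter of the cell surface, had levels of 22.1, 26.6 and 21.4 in hypothalamus and no more than 4 reads in any pituitary (difference -5.21, SE 0.16, limma adjusted p = 2.90e-09). Ddc, the decarboxylase that follows Th, and Slc18a2, which loads monoamines into vesicles, were higher in hypothalamus by 2.98 and 2.39 on the log2 scale. Both also had reads in every pituitary, at 3.65, 3.03 and 5.53 for Ddc and 5.52, 4.80 and 5.64 for Slc18a2.

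Avp and Oxt encode vasopressin and oxytocin, which are made in the hypothalamus and released from the posterior lobe. Avp had levels of 100.4, 112 and 118 in hypothalamus and 2.49, 3.60 and 1.37 in pituitary, and Oxt of 83.8, 97.5 and 119 and 6.85, 8.87 and 5.75. The pituitary level was thus 1.16 to 3.21% of the hypothalamic level for Avp and 4.83 to 9.09% for Oxt under the same mouse number, against 0.0747 to 0.292% for Pmch and 0.131 to 0.471% for Hcrt, precursors of peptides from neurons of the lateral hypothalamus. The differences were -5.28 (SE 0.24, limma adjusted p = 3.70e-08) for Avp and -3.72 (SE 0.17, limma adjusted p = 3.33e-08) for Oxt. Whether the pituitary reads came from the posterior lobe was not tested.

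The receptors for these factors did not move as a group. Of 17, 9 were higher in pituitary, 6 higher in hypothalamus and 2 were not called, and the median difference was 0.54. The genes of 3 receptors were almost unread in hypothalamus. Ghrhr, the receptor for GHRH, on chromosome 6 from 55376295 to 55388530, had levels of 119.7, 140.0 and 149 in pituitary and 3, 2 and 1 reads in hypothalamus (difference 7.79, SE 0.13, limma adjusted p = 1.67e-10). Gnrhr, the receptor for GnRH, had 47.5, 55.5 and 40.7 in pituitary and 0, 0 and 3 reads in hypothalamus (difference 6.44, SE 0.18, limma adjusted p = 1.64e-09). Avpr1b, the vasopressin receptor of corticotropes, had 4.63, 3.32 and 7.06 in pituitary and 1 read in the 3 hypothalamus libraries together (difference 3.35, SE 0.24, limma adjusted p = 1.06e-06).

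The receptor for TRH was an exception. Trhr, on chromosome 15 from 44196135 to 44235912, had levels of 13.6, 5.72 and 8.202 in pituitary and 8.35, 8.21 and 8.24 in hypothalamus. The hypothalamic values were almost the same in the 3 mice, and the pituitary values ran from below to above them. The difference was 0.059 (SE 0.25, limma adjusted p = 0.838), and it became -0.25 (limma adjusted p = 0.193) without the pituitary of mouse 1. Trhr2, a second TRH receptor, stood at 2.92, 3.12 and 1.97 in hypothalamus and at 0 reads in the 3 pituitaries, which makes it at least 16.8-fold higher in hypothalamus when 3 reads per library are taken as the limit. Crhr1, the receptor of corticotropes for CRH, was higher in pituitary by only 0.54 (SE 0.14, limma adjusted p = 0.00649), with 18.2, 18.4 and 13.5 in pituitary and 12.47, 11.3 and 10.1 in hypothalamus. Crhr2, the other CRH receptor, went the opposite way, from 3.70, 6.13 and 4.76 in hypothalamus to 0.356, 0.458 and 0.285 in pituitary (difference -2.61, SE 0.20, limma adjusted p = 1.50e-06).

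The 5 somatostatin receptors, which inhibit secretion, were split. Sstr5 had levels of 14.02, 23.6 and 18.6 in pituitary and 2.09, 2.77 and 1.57 in hypothalamus (difference 2.86, SE 0.22, limma adjusted p = 1.60e-06). Sstr3 and Sstr1 were also higher in pituitary, by 1.48 and 0.74, and their libraries did not overlap between tissues. Sstr2 and Sstr4 were higher in hypothalamus, with differences of -1.36 and -1.71 and pituitary levels of 2.76, 3.43 and 3.65 and 0.845, 0.343 and 0.797.

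Drd2, the dopamine receptor of lactotropes and of many neurons, had levels of 91.2, 98.4 and 85.2 in pituitary and 10.1, 12.6 and 11.5 in hypothalamus. It was higher in pituitary by 2.95 (SE 0.098, limma adjusted p = 5.31e-09), and Drd4, another dopamine receptor of the same class, by 2.05 (SE 0.27, limma adjusted p = 7.41e-05) at the lower level of 3.51, 2.69 and 1.59. Avpr1a and Oxtr, the vasopressin and oxytocin receptors of brain neurons, were higher in hypothalamus, with 1.73, 2.83 and 3.48 and 6.503, 8.21 and 7.78 there and 0.0445, 0.114 and 0.114 and 1.38, 1.03 and 1.08 in pituitary. Ghsr, the ghrelin receptor, was not called at 6.58, 2.63 and 3.42 in pituitary and 5.79, 6.30 and 5.34 in hypothalamus (difference -0.51, SE 0.27, limma adjusted p = 0.108). Without the pituitary of mouse 1 it became -0.85 (limma adjusted p = 0.00185), which passes the threshold.

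Thyroid hormone enters cells through transporters, is activated by type 2 deiodinase (Dio2) and inactivated by type 3 (Dio3), and acts on the receptors encoded by Thra and Thrb together with retinoid X receptors. Of the 18 tested genes of this group, 7 were higher in pituitary, 6 higher in hypothalamus and 5 were not called, with a median difference of 0.11. The 2 receptor genes went in opposite directions. Thrb, on chromosome 14 from 17660261 to 18038090, had levels of 104, 97.7 and 106 in pituitary and 27.0, 28.8 and 28.1 in hypothalamus, a difference of 1.86 (SE 0.068, limma adjusted p = 9.64e-09). Thra, on chromosome 11 from 98740638 to 98769006, had levels of 134, 111 and 87.9 in pituitary and 323, 288 and 293 in hypothalamus, a difference of -1.46 (SE 0.13, limma adjusted p = 5.06e-06). Both sets of 3 libraries were separate for each gene, and the levels are per gene and do not separate the THRB1 and THRB2 isoforms.

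Dio2, on chromosome 12 from 90724552 to 90738438, had levels of 156, 87.6 and 103 in pituitary, with mouse 1 the highest, and 16.5, 16.8 and 14.04 in hypothalamus. It was higher in pituitary by 2.79 (SE 0.18, limma adjusted p = 5.17e-07), the largest difference in that direction among these genes. Rxrg, a retinoid X receptor found in thyrotropes, had levels of 66.9, 68.3 and 66.1 in pituitary and 11.9, 11.9 and 14.2 in hypothalamus (difference 2.36, SE 0.090, limma adjusted p = 1.20e-08). The other retinoid X receptors moved little, Rxra by 0.42 and Rxrb by -0.42, and both were called, Rxrb not under totals without the 10 highest genes (-0.14, limma adjusted p = 0.173). Dio1, type 1 deiodinase, was higher in pituitary by 1.21 (SE 0.25, limma adjusted p = 0.00146) at low levels of 1.60, 1.60 and 1.25 against 0.358, 0.116 and 0.696. Dio3 was below the filter, with at most 0.289 CPM in any of the 6 libraries, and was not tested.

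Transporters of brain vessels separated the tissues most sharply among these genes. Slco1c1, which carries thyroxine across the endothelium of brain vessels, on chromosome 6 from 141524368 to 141570177, had levels of 39.4, 52.8 and 34.2 in hypothalamus and 2, 0 and 4 reads in pituitary. Its difference of -6.13 (SE 0.20, limma adjusted p = 4.83e-09) stood beside that of Slco1a4, another organic anion transporter of brain vessels (49.0, 53.0 and 52.8 in hypothalamus and 0.667, 0.515 and 1.196 in pituitary, difference -5.37, SE 0.18, limma adjusted p = 6.23e-09). Slc16a10, which encodes the transporter MCT10, was not called (11.3, 11.2 and 9.40 and 14.3, 12.6 and 11.4, difference -0.25, SE 0.13, limma adjusted p = 0.0949).

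Among the remaining genes of the group, Trhde, the enzyme that degrades TRH, had levels of 13.4, 12.7 and 14.8 in hypothalamus and 0.534, 0.286 and 0.342 in pituitary (difference -4.0, SE 0.16, limma adjusted p = 1.57e-08). Thrsp, a gene induced by thyroid hormone, was higher in pituitary by 1.10 (SE 0.096, limma adjusted p = 3.97e-06). Klf9 and Hr, which respond to thyroid hormone in brain, had differences of -0.15 and 0.12 and limma adjusted p of 0.0950 and 0.369, so no tissue difference was called for either. Without the pituitary of mouse 1, Klf9 stood at -0.21 and was called (limma adjusted p = 0.0140), and its direction turned under quantile normalization and under totals without the 10 highest genes. Crym, which binds the hormone in the cytosol, and Tshr, the TSH receptor, were not called either (differences 0.37 and 0.11, SE 0.22 and 0.29, limma adjusted p 0.144 and 0.745), although Crym passed without the hypothalamus of mouse 1 (0.61, limma adjusted p = 0.0146).

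Ttr encodes the thyroxine carrier transthyretin of the choroid plexus, and the size of its difference rested on 1 library. It had levels of 21.4, 1098 and 23.5 in hypothalamus and 3.83, 3.20 and 5.47 in pituitary. The hypothalamus of mouse 2 stood far above the other two, and it was also the highest hypothalamus library for the choroid plexus genes Kl (8.11, 56.2 and 11.1), Clic6 (15.1, 41.0 and 16.1), Sostdc1 (2.74, 12.1 and 3.02) and Folr1 (0.895, 8.84 and 0.986). The Ttr difference was -4.19 (SE 1.24, limma adjusted p = 0.0118) with all 6 libraries and -2.33 (limma adjusted p = 1.39e-05) without that library. The same omission moved Sostdc1 from -2.89 to -2.26, Folr1 from 2.67 to 3.57 and Kl from 1.68 to 2.51. Kl lost its call without the hypothalamus of mouse 1 (1.15, limma adjusted p = 0.113), that of mouse 43 (1.37, 0.102) or the pituitary of mouse 1 (1.35, 0.103). The summed level of the 6 choroid plexus markers ran from 36.5 to 137 in hypothalamus and 67.2 to 114 in pituitary. Of the 5 tested, 2 were higher in pituitary and 3 in hypothalamus, with a median of -1.80, and the part of choroid plexus tissue in these values was not tested.

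**Figure D2:**
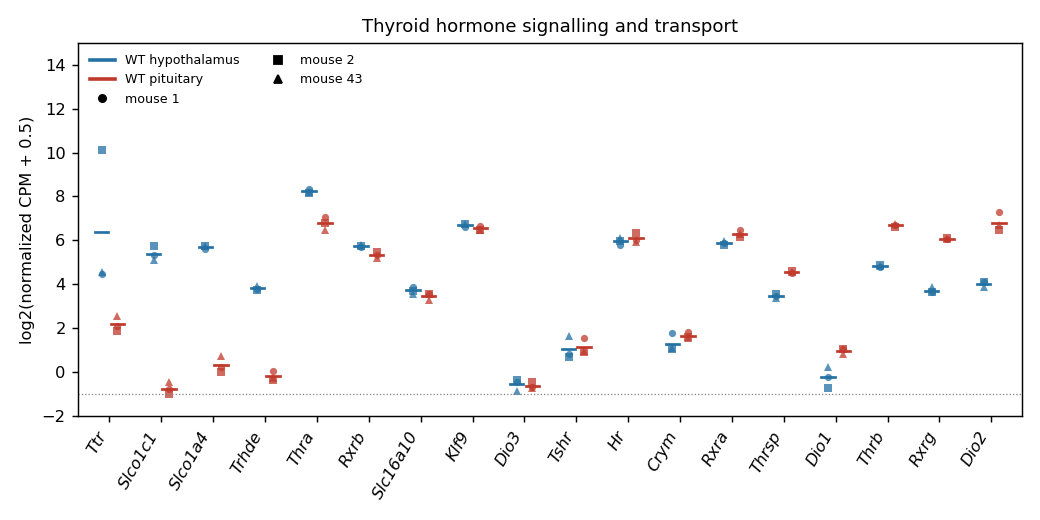
Level of the thyroid hormone genes in the 6 WT libraries as log2(normalized CPM + 0.5), with symbols for mice, colours for tissues and bars for the mean of 3 as in the plot of hormones, factors and receptors. Slco1c1, Slco1a4 and Trhde lie low in pituitary, Dio2, Rxrg and Thrb lie high, and the Ttr value of mouse 2 in hypothalamus stands apart from the other two.

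The labelled tissues were checked against transcription factors of each lineage. Of 19 tested factors of the pituitary lineages 16 were higher in pituitary, 12 of them by 8-fold or more, 0 were higher in hypothalamus and 3 were not called, with a median of 3.57. Pou1f1, which specifies somatotropes, lactotropes and thyrotropes, had levels of 123, 137 and 110.0 in pituitary and 3, 1 and 0 reads in hypothalamus. Pitx1, which marks the pituitary from its earliest stages, had 204, 222 and 197 in pituitary and 0.537, 0.289 and 0.522 in hypothalamus, and Lhx3, needed for most anterior lobe cells, had 100.3, 127 and 111 and 0.418, 0.231 and 0.580. Their differences were 7.75, 7.79 and 6.97, with limma adjusted p of 3.10e-10, 1.48e-10 and 7.12e-10.

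Of 20 factors listed for the hypothalamus, 16 were higher in hypothalamus and 4 higher in pituitary, with a median of -2.73. Dlx1, a factor of GABA neurons, had levels of 26.3, 28.4 and 27.9 in hypothalamus and 0.0890, 0.0572 and 0 in pituitary (difference -5.68, SE 0.14, limma adjusted p = 9.22e-10). Lhx9 and Otp, factors of neuroendocrine and lateral hypothalamic neurons, had differences of -5.51 and -4.89. The 4 that were higher in pituitary included 3 that also take part in early pituitary and eye development. Six6 had levels of 134, 136 and 129 in pituitary and 3.70, 3.35 and 5.11 in hypothalamus (difference 4.89, SE 0.13, limma adjusted p = 1.63e-09), Six3 had 109, 123 and 98.4 and 44.2, 55.1 and 44.9 (difference 1.19) and Rax had 6.45, 7.21 and 5.47 and 1.31, 1.68 and 1.74 (difference 1.73). The fourth, Tbx3, a T-box factor of arcuate neurons, differed by 0.69 (limma adjusted p = 0.00255).

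Of 21 tested neuropeptide genes of the hypothalamus beyond the releasing factors, 18 were higher in hypothalamus, 1 was higher in pituitary and 2 were not called, with a median of -2.27. Pmch, the precursor of melanin-concentrating hormone, had levels of 200.5, 229.8 and 254 in hypothalamus and 0.267, 0.172 and 0.740 in pituitary. Hcrt, the precursor of the orexins, had 68.0, 67.4 and 84.7 and 0.0890, 0.286 and 0.399, and Adcyap1, the precursor of PACAP, had 42.5, 46.0 and 62.7 and 0.0890, 0.114 and 0.228. Their differences were -8.04, -6.62 and -6.29, with limma adjusted p of 1.33e-09, 1.50e-09 and 1.76e-09. Nmu, which encodes neuromedin U, was the only called gene of this list that was higher in pituitary, at 1.51, 1.32 and 0.740 against 0, 0.289 and 0.464 (difference 1.19, SE 0.28, limma adjusted p = 0.00345).

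Both tissues pack peptides into dense core granules. Of 16 genes listed for granules and prohormone processing 11 were higher in pituitary, 4 higher in hypothalamus and 1 was not called (median 1.64). Chgb, which encodes the granule protein chromogranin B, had levels of 4915, 4180.4 and 5101 in pituitary and 250.2, 238 and 260.1 in hypothalamus (difference 4.24, SE 0.082, limma adjusted p = 3.10e-10). Rab27a and Rab3d, small GTPases that guide granules to the cell surface, were higher in pituitary by 3.51 and 3.35. Vgf, a granule peptide precursor of neurons, went the opposite way, with 287, 296 and 362 in hypothalamus and 11, 11.95 and 27.7 in pituitary (difference -4.32, SE 0.30, limma adjusted p = 6.89e-07). Cadps, which primes granules for release, was higher in hypothalamus by 2.22 (limma adjusted p = 9.18e-08). Secisbp2l, higher in hypothalamus by 1.14, was counted in this list although its protein is known for binding selenocysteine insertion elements.

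Nervous tissue genes were lower in pituitary throughout the 3 lists that describe them. All 18 neuronal genes, all 10 astrocyte genes and all 10 oligodendrocyte genes were higher in hypothalamus, with medians of -3.81, -4.10 and -5.87. In tissue libraries fewer cells of a type and less RNA per cell cannot be told apart. The summed level of the oligodendrocyte genes was 5697 to 6433 in hypothalamus and 121 to 162 in pituitary, and that of the neuronal genes 8077 to 8319.7 in hypothalamus and 1268 to 1339 in pituitary. The drop was thus larger for the myelin genes than for the neuronal ones. Snap25, a protein of vesicle release that endocrine cells also use, stood at 21.1 to 25.1% of the hypothalamic level under the same mouse number.

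Gad1, which makes the transmitter GABA, had levels of 291, 301 and 252 in hypothalamus and 0.756, 0.229 and 0.684 in pituitary, and Slc32a1, which loads GABA into vesicles, 173, 184 and 163 and 1.60, 2.002 and 1.94. Their differences were -8.09 and -6.21 (limma adjusted p 8.18e-10 and 1.47e-10). Mobp, a myelin protein, had 289.6, 319 and 327 in hypothalamus and 0.578, 0.744 and 1.25 in pituitary. Slc1a2, the main glutamate transporter of astrocytes, had 1691, 1649 and 1473 and 38.5, 31.6 and 38.8, and Gfap, the filament protein of astrocytes and of pituicytes in the posterior lobe, 151, 137 and 148 and 2.36, 2.40 and 5.53. The pituitary of mouse 43 was the highest of the 3 for Mobp and Gfap.

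Genes listed for neighbouring brain regions also had reads in the hypothalamus libraries. All 6 genes listed for the thalamus were higher there, with a summed level of 870.3 to 1037 in hypothalamus and 92.8 to 116 in pituitary and a median difference of -4.04. Calb2, the calcium-binding protein calretinin, had levels of 223, 229.8 and 265 in hypothalamus and 0.178, 0.229 and 1.03 in pituitary, and Gbx2, a thalamic factor, had 21.5, 26.9 and 28.7 and 0, 0 and 0.114. Of 5 tested cortex genes 4 were higher in hypothalamus (median -2.24), among them Tbr1 at 7.995, 8.61 and 7.02 against 0, 0 and 0.0570. All 18 neuronal genes were also higher in hypothalamus than in pituitary (median -3.81), so this comparison cannot show thalamus or cortex tissue. Whether the dissected hypothalamus held such tissue, and how much, was not tested.

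Genes listed for the endothelium of brain vessels were lower in pituitary, and most of those listed for fenestrated and general endothelium were higher. The brain has a tight endothelium with a blood-brain barrier, and the pituitary has a fenestrated one that lets hormones pass. All 7 barrier genes were lower in pituitary, with a median of -2.52. Besides Slco1c1, Cldn5, a tight junction protein of endothelium, had levels of 27.6, 26.1 and 23.3 in hypothalamus and 2.31, 2.29 and 3.36 in pituitary (difference -3.07, SE 0.15, limma adjusted p = 7.68e-08), and Mfsd2a, a lipid transporter of the barrier, 17.7, 19.9 and 26.8 and 2.18, 2.52 and 3.36 (difference -2.78, SE 0.19, limma adjusted p = 6.29e-07). Of the 8 genes of fenestrated and general endothelium, 6 were higher in pituitary, 1 was lower and 1 was not called (median 1.26). Plvap, which forms the diaphragms of fenestrae and lies on chromosome 8 from 71497765 to 71511752, had levels of 227, 264 and 213 in pituitary and 10.98, 10.8 and 10.7 in hypothalamus (difference 4.37, SE 0.087, limma adjusted p = 3.64e-10). Kdr, the VEGF receptor of endothelium, and Emcn, an endothelial surface protein, were higher in pituitary by 2.72 and 2.44, while the decoy receptor gene Flt1 was higher in hypothalamus by 1.10. In whole tissue these reads cannot be assigned to vessels, and other cells also express some of the listed genes.

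Epithelial genes marked the pituitary. Of 10 genes of epithelium and folliculostellate cells, 9 were higher in pituitary, 8 of them by 8-fold or more, and the median was 4.36. Epcam, an adhesion protein of epithelia, had levels of 394, 380.1 and 379 in pituitary and 1.43, 1.16 and 0.522 in hypothalamus (difference 8.02, SE 0.20, limma adjusted p = 9.78e-10). The tight junction gene Cldn3 and the keratin gene Krt8 were higher by 5.23 and 4.62. Sox2, a factor of pituitary stem cells and of brain glia, was higher in hypothalamus by 0.70 (limma adjusted p = 5.27e-06). Of 8 genes of meninges and fibroblasts 6 were higher in pituitary (median 3.05), led by the collagen gene Col1a2 at 274, 294 and 349 against 19.0, 22.0 and 18.5, and Ptgds, a prostaglandin synthase that meninges and oligodendrocytes express, was higher in hypothalamus by 3.19.

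The lists for ependyma, microglia and blood gave mixed results. Of 8 genes of ependyma and tanycytes 5 were higher in hypothalamus, 2 higher in pituitary and 1 was not called (median -1.71), with Tmem212 and Ccdc153, genes of ciliated cells, at -3.04 and -2.78. Col23a1, a collagen gene and 1 of the 2 that were higher in pituitary, differed by 0.45 (limma adjusted p = 0.0235) and lost its call when any of 4 libraries was left out, with values of 0.31 to 0.45. Of 8 microglia and macrophage genes 5 were higher in hypothalamus, 1 higher in pituitary and 2 were not called (median -0.80). P2ry12, a receptor of resting microglia, had levels of 17.5, 17.5 and 18.4 in hypothalamus and 2.05, 2.35 and 2.79 in pituitary (difference -2.67), and Mrc1, the mannose receptor of tissue macrophages, was higher in pituitary by 1.16 (limma adjusted p = 0.00154). Of 6 blood cell genes 2 were called, both higher in pituitary, and the summed level overlapped at 116 to 345 in hypothalamus and 257 to 665 in pituitary. Those 2, Hba-a1 and Hba-a2, encode near-identical α-globins whose reads cannot be divided between them with certainty. Hba-a1 differed by 1.01 (limma adjusted p = 0.0355) and lost its call without any of 4 libraries, with values of 0.66 to 0.99. Hba-a2 differed by 3.32, and by 1.93 (limma adjusted p = 0.00279) without the hypothalamus of mouse 2.

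All 14 ribosomal protein genes were higher in pituitary, by 0.53 to 1.62, with a median of 1.28. Rpl5 had levels of 477, 470.2 and 511 in pituitary and 156, 166 and 151 in hypothalamus (difference 1.62, SE 0.064, limma adjusted p = 1.51e-08). Ribosomal protein genes have many processed copies in the genome, and reads shared with these copies add uncertainty to each gene. Of 7 tested cell cycle genes 4 were higher in pituitary, 0 in hypothalamus and 3 were not called (median 1.16). Mki67 and Top2a, which are expressed in dividing cells, had levels of 4.14, 9.09 and 8.83 and 2.58, 5.55 and 5.01 in pituitary, with mouse 1 the lowest for both, and 0.716, 1.04 and 1.10 and 0.656, 0.347 and 0.174 in hypothalamus.

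The pituitary also reads hormones of its target glands. Of 18 tested genes for feedback receptors and the activin system 10 were higher in pituitary, 6 higher in hypothalamus and 2 were not called (median 0.51). Esr1, estrogen receptor α, had levels of 182, 109 and 130.2 in pituitary and 6.44, 6.82 and 7.19 in hypothalamus (difference 4.23, SE 0.16, limma adjusted p = 1.23e-08), while Esr2, estrogen receptor β, was higher in hypothalamus by 0.99. Tgfbr3, a coreceptor for inhibin, and Inhbb, a subunit of activin and inhibin B, were higher in pituitary by 2.93 and 2.07. Pgr, the progesterone receptor, and Acvr1b, an activin receptor, were higher in hypothalamus by 1.10 and 1.21.

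**Figure D3:**
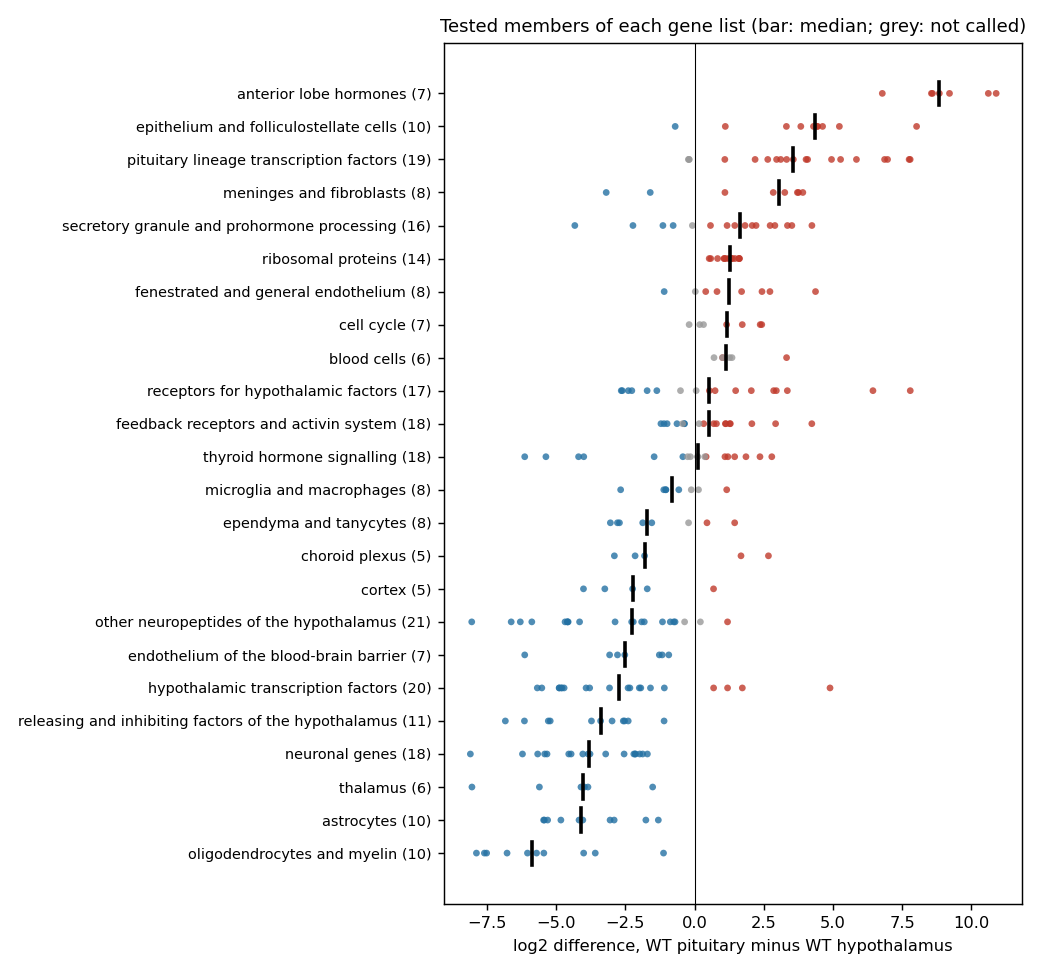
Log2 difference, WT pituitary minus WT hypothalamus, of each tested member of the 24 gene lists, with the number tested in parentheses. Points are red where higher in pituitary, blue where higher in hypothalamus and grey where not called, and a bar marks the median, which runs from -5.87 for oligodendrocytes and myelin to 8.84 for the anterior lobe hormones.

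Ranked over all tested genes with a mean of at least 10 CPM in the higher tissue and no overlap, the 12 largest differences in favour of pituitary were those of Prl, Gh, Fshb, Pomc, Lhb, Cga, Epcam, Cyp2f2, Ghrhr, Pitx1, Pou1f1 and Myo15, which range from 7.57 to 10.89. Cyp2f2, a cytochrome P450 best known from the airway, had levels of 242, 239 and 309 in pituitary and 0.239, 0.347 and 1.33 in hypothalamus (difference 7.97, SE 0.29, limma adjusted p = 1.00e-08). Myo15, an unconventional myosin best known from hair cells of the inner ear, had 371, 374 and 238 and 1.55, 1.16 and 0.928 (difference 7.57, SE 0.19, limma adjusted p = 1.06e-09).

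The 12 on the side of the hypothalamus included Gad1, Pmch, Calb2, Itih3, Mobp, Ptpn5, Camkv, Vsnl1, Trank1 and Mag, from -8.09 to -7.59. Ptpn5, a phosphatase of neurons also called STEP, had levels of 196, 197 and 194 in hypothalamus and 0.311, 0.114 and 0.684 in pituitary (difference -7.87, SE 0.20, limma adjusted p = 1.27e-09), and Vsnl1, a neuronal calcium sensor, 415, 449.6 and 447 and 1.201, 0.801 and 3.36. Mag and Mobp belong to myelin, and Camkv is a kinase-like protein of synapses. Itih3, a heavy chain of the inter-alpha-trypsin inhibitors, stood at 199, 202 and 234 and 0.222, 0.458 and 0.513 and Trank1 at 276, 262 and 254 and 0.845, 0.915 and 0.740.

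**Figure D4:**
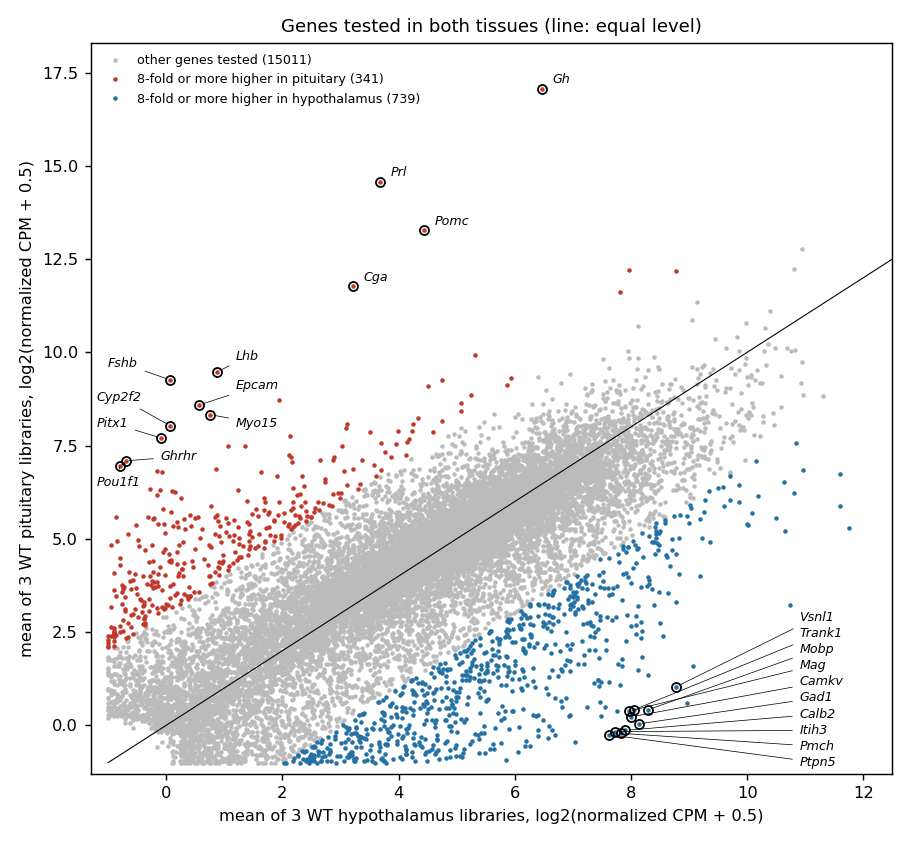
Mean log2(normalized CPM + 0.5) of the 16091 tested genes in the 3 WT hypothalamus libraries (horizontal) and the 3 WT pituitary libraries (vertical), with a line at equal level. Red points are the 341 genes and blue points the 739 genes with a called difference of 8-fold or more, and circles mark the 12 genes named for pituitary and the 10 named for hypothalamus.

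Whether the tissue difference held in the other genotype was asked in the K146Q mice, whose libraries share no mouse number with the WT ones. There 12667 of the 16091 genes (78.7%) were called between tissues. Of the 12272 genes called in WT, 11222 were also called in the same direction in K146Q, which is 91.4% of the WT and 88.6% of the K146Q calls, and 60 were called in the opposite direction. Of the 1080 genes with an 8-fold or larger difference in WT, 1073 were called in the same direction in K146Q and 0 in the opposite one. The test of the genotype difference itself called 971 genes (6.03%), of which 663 had a higher pituitary minus hypothalamus value in K146Q and 308 a lower one.

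Of the 53 tested genes for hormones, factors, receptors and thyroid hormone signalling 12 were called in that test. Tshb and Cga rose in pituitary relative to hypothalamus in K146Q, by 3.55 (SE 0.49, limma adjusted p = 0.000675) and 1.83 (SE 0.36, limma adjusted p = 0.00714). Prl and Gh fell by 1.995 (SE 0.21, limma adjusted p = 8.47e-05) and 1.08 (SE 0.29, limma adjusted p = 0.0427). The other 3 hormone genes, Pomc, Lhb and Fshb, had tissue differences of 8.69, 8.69 and 9.02 in K146Q and were not called (limma adjusted p 0.882, 0.775 and 0.746).

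The gene of the TRH receptor, for which no difference was called between the WT tissues, was higher in the K146Q pituitary than in the K146Q hypothalamus. Trhr had levels of 71.1, 59.9 and 53.2 in pituitary and 7.73, 6.504 and 8.28 in hypothalamus of the K146Q mice 60, 62 and 83, and its tissue difference was 2.95 there (limma adjusted p = 1.41e-08), 2.89 above that in WT (SE 0.31, limma adjusted p = 8.83e-05). Dio2, already higher in the WT pituitary, stood at 944, 877 and 704 in the K146Q pituitary, and its tissue difference was larger than in WT by 2.80 (SE 0.24, limma adjusted p = 1.60e-05). Thrb itself had a tissue difference of 2.52 in K146Q, larger than in WT by 0.67 (SE 0.12, limma adjusted p = 0.00426), whereas that of Thra was not called as different (limma adjusted p = 0.725).

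Th and Slc6a3, genes of dopamine neurons in WT, had higher pituitary values in K146Q. Th had levels of 112, 42.4 and 27.6 in the K146Q pituitaries of mice 60, 62 and 83 and 39.8, 32.6 and 28.8 in the K146Q hypothalamus, so that no tissue difference was called there (0.60, limma adjusted p = 0.168). Its tissue difference in K146Q was 3.99 above that in WT (SE 0.55, limma adjusted p = 0.000596), and mouse 60 stood highest. Slc6a3 stood at 4.39, 4.39 and 3.51 in the K146Q pituitaries, and its tissue difference rose by 2.597 (SE 0.37, limma adjusted p = 0.000855). Ghsr, at 0.0516, 0 and 0.953 in the K146Q pituitaries, went the other way, by -2.26 (SE 0.50, limma adjusted p = 0.0151).

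**Figure D5:**
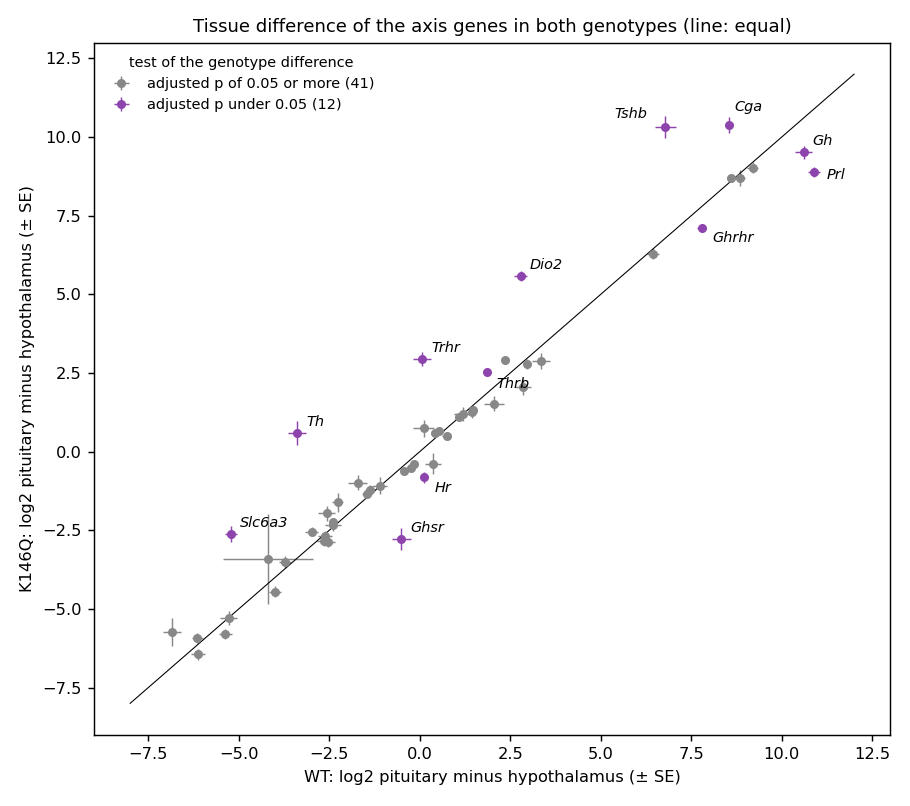
Log2 difference, pituitary minus hypothalamus, of 53 genes for hormones, factors, receptors and thyroid hormone signalling in WT (horizontal) and K146Q mice (vertical), each with its SE, and a line where both are equal. The 12 genes in purple passed the test of the difference between genotypes, with Tshb, Cga, Dio2, Trhr, Th, Slc6a3 and Thrb above the line and Prl, Gh, Ghrhr, Hr and Ghsr below it.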

How the data were processed

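RNA was measured by sequencing on an Illumina HiSeq instrument, and the submitters' processing notes name bcl2fastq 2.17, Bowtie2 2.1.0, RSEM 1.2.15 and mouse build mm10; the annotation and the strand setting are not given in the sources used here. The authors deposited, for each tissue, a normalized CPM signal for 24054 rows and 6 libraries. All of 144324 values of the 6 WT libraries were whole reads within 0.05 read after division by what 1 read is worth. The normalization factors multiply to 1 over the 18 libraries but to 1.74 over the 6 hypothalamus and 1.45 over the 6 pituitary libraries, so the authors scaled the tissues together. The deposited tables also hold the authors' log2 fold change, mean log2 CPM, likelihood ratio score, p-value and false discovery rate for K146Q against WT, which were not used. Symbols turned into dates (27 for each tissue) were left out.

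The tissues were joined by gene symbol, keeping 24027 symbols found once in both, of which the 16091 that reached 0.5 CPM in 3 or more WT libraries were tested. limma 3.58.1 (R 4.3.3) was run on log2(CPM + 0.5) with 3 pituitary against 3 hypothalamus libraries and a mean-variance trend whose covariate was capped at the 99.5th percentile. p-values were adjusted by Benjamini-Hochberg over all genes tested, with a threshold of 0.05. Fold differences on this scale understate those of genes at low levels. The genotype difference and the tissue difference within K146Q were contrasts of 4 group means over 12 libraries. The fits were tested on simulated counts. For the tissues, 98 and 100 of 15970 genes were changed by 1 and 2 on the log2 scale. limma recovered 85.7 and 100% of them, and 7.07% of its calls were false, against 7.54% for edgeR and 11.7% for DESeq2. For the genotype difference limma recovered 71 and 91%, and 10% of its calls were false. These false shares lie above the threshold of 0.05. The simulations changed far fewer genes than were called in the data. edgeR 4.0.16 and DESeq2 1.42.0 on the recovered reads and other scalings, filters and models were run as alternatives.

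The design text has the tissues coming from 3 mice per genotype, and equal numbers were read as 1 animal, which was not settled by the data. The deviations of same-numbered libraries from their group means correlated at 0.0342, -0.0395 and 0.0995 over 16091 genes. Those of other pairs correlated at -0.0891 to 0.0555. The comparison of tissues did not use the pairing. The genes compared, the 24 gene lists and the tests were chosen with earlier results of these data known. All members of the lists for hormones, factors, receptors and thyroid hormone signalling were named; of other lists, called members with the 3 largest and 3 most negative differences, and the 12 extremes on each side; some genes are not reported here; Snap25 and Tbx3 were named after their values were seen. Promoters came from RefSeq (GRCm38.p6), gene positions from GENCODE M21 (GRCm38). The limit of a count of 0 (3 reads) covers counting error only.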

Additional observations from a re-analysis of the deposited data

Results flagged for a closer look

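For 12 genes the difference between pituitary and hypothalamus was itself different between K146Q and WT mice by a limma contrast over 12 libraries (adjusted p under 0.05 over 16091 genes, of which 971, or 6.03%, passed). In order from the most negative, the K146Q minus WT value on the log2 scale was -2.26 for Ghsr, -1.995 for Prl, -1.08 for Gh, -0.94 for Hr and -0.67 for Ghrhr. It was 0.67 for Thrb, 1.83 for Cga, 2.597 for Slc6a3, 2.80 for Dio2, 2.89 for Trhr, 3.55 for Tshb and 3.99 for Th. The limma adjusted p was 0.0427 for Gh, 0.0422 for Ghrhr, 0.0463 for Hr and 0.0151 for Ghsr, and under 0.01 for the other 8 genes. Beside Th, the 3 K146Q pituitaries were far apart, at 112, 42.4 and 27.6. The K146Q pituitary values of Ghsr (0.0516, 0 and 0.953) included 1 library with 1 read and 1 with 0. These values rest on 3 mice of each genotype, and their cause was not tested. In simulated counts 10% of the calls of this contrast were false, above the threshold of 0.05.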

How the results depend on the processing

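Of 138 genes taken from the lists and the extremes 131 were called. Of these, 124 kept their call and direction under every alternative in which they were tested. Genes under 1 CPM in any of the 6 libraries, Fshb and Trh among them, were not tested under the filter that asks for it. The counts of called genes stayed within 1.5 times in each alternative. The count with an 8-fold difference moved most: it rose for pituitary from 341 to 529 with a pseudocount of 0.1, 590 with edgeR and 586 with DESeq2, and fell to 158 when at least 1 CPM was asked in all 6 libraries, and for hypothalamus it went from 739 to 1119 with DESeq2 and 399 with that filter, under which genes absent from 1 tissue are no longer tested. Scaling to totals without the 10 highest genes gave 7999 genes higher in pituitary and 4709 in hypothalamus (62.9% of calls higher in pituitary, against 50.5%), and quantile normalization 6888 and 5383. With 1 library left out in turn the counts ran from 5812 to 6100 higher in pituitary and 5719 to 6062 in hypothalamus, and from 334 to 354 and 733 to 747 at 8-fold. The mouse as a replicate block gave 6143 and 6040 called genes, 341 and 739 at 8-fold and 877 in the genotype test against 971, and changed no call of a named gene between the WT tissues.

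Genes that were not called changed direction in places: Klf9 to 0.093 (quantile) and 0.14 (totals without the 10 highest genes), Slc16a10 to 0.025 (the same), Trhr to -0.0090 (library totals only) and -0.25 (without the pituitary of mouse 1), and Tshr to -0.013, -0.080 and -0.10 (without the hypothalamus of mouse 1, of mouse 2 and the pituitary of mouse 1). With 1 library left out in turn Trhr reached 0.34 and Tshr 0.41 at most. With totals without the 10 highest genes Rxrb was no longer called (adjusted p = 0.173), while Crym and Hr were. Ttr, Kl, Folr1, Col23a1, Hba-a1 and Hba-a2 lost their call under at least 1 alternative, and Klf9 and Ghsr were called without the pituitary of mouse 1. The cause was not tested. Depth limits Gnrh1, Dio1, Dio3, Ghrh in pituitary and the receptors with fewer than 4 reads in hypothalamus.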

Other observations

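The 3 WT pituitaries differed from each other in several genes. Gh and Prl were highest in mouse 43, Pomc was lowest there, and Pax7, a factor of the melanotropes of the intermediate lobe, looked up after the Pomc values were seen, had levels of 48.5, 46.2 and 24.4 in mice 1, 2 and 43. Gal, which encodes galanin and was not called between the tissues, had 8.54, 12.6 and 30.9, also chosen after its values were seen. Tshb and Dio2 were both lowest in mouse 2, and Trhr as well (13.6, 5.72 and 8.202). With 3 mice these are values, not relations.

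Several genes outside the lists for hormones, factors, receptors and thyroid hormone signalling also had a tissue difference that depended on genotype. Cartpt, a peptide precursor of hypothalamic neurons, had levels of 1.02, 1.37 and 1.82 in the WT and 81.6, 16.2 and 14.9 in the K146Q pituitaries (genotype difference 4.11, limma adjusted p = 0.00139). Grp, which encodes gastrin-releasing peptide, had 1.65, 1.72 and 0.627 and 169, 33.7 and 11.3 (4.75, limma adjusted p = 0.00657), Nmb, which encodes neuromedin B, 3.60, 2.97 and 2.22 and 25.5, 17.3 and 11.04 (2.48, limma adjusted p = 0.000791), and Vgf 11, 11.95 and 27.7 and 197, 103 and 78.8 (3.02, limma adjusted p = 0.00153). Chgb had 4915, 4180.4 and 5101 and 22951, 19653 and 17148 (2.02, limma adjusted p = 3.32e-06). Mouse 60 was the highest of the K146Q pituitaries for all 5 genes. These genes were chosen after their values were seen.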
